A study of Mus musculus with 21 samples.

Results

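The cytosolic ribosomal protein genes were followed through 4 stages of mouse pluripotency. They were chosen by symbol, as every row of the count table named Rpl or Rps with a number and at most 1 suffix letter, together with the stalk proteins Rplp0, Rplp1 and Rplp2 and with Rpsa. The rule found 82 of 39396 rows, of which 50 encode proteins of the large subunit and 32 proteins of the small subunit. All 82 passed the filter on low counts that left 16575 genes to be tested. Other ribosomal protein genes, such as Rack1 and Fau, which have names of another kind, and the paralogs Rpl22l1, Rpl7l1, Rpl36al and Rps27rt fall outside the rule and were read as a list of their own.

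Ribosomal proteins are made in the cytoplasm, imported into the nucleolus and assembled on ribosomal RNA into the small and large subunits, so that each is needed in about the amount of the others. Their mRNAs belong to the TOP class, which starts with a run of pyrimidines and is held back from translation when signalling through the kinase mTOR is low. Synthesis of ribosomal RNA by RNA polymerase I and expression of ribosome assembly factors are driven by Myc proteins. A free pool of some ribosomal proteins, Rpl5 and Rpl11 among them, binds the ubiquitin ligase Mdm2 and thereby raises p53.

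RNA sequencing counts came from 21 libraries, 3 for each of 7 groups. Lines A2 and D3 each gave ground-state embryonic stem cells (mESCs), whose serum medium held 2i and the cytokine LIF at 1000 U/mL. Both also gave naive mESCs, taken 4 days after 2i was withdrawn, with LIF at 1000 U/mL. EPL cells came from ground-state cells given L-proline (400 uM) for 4 days, with LIF lowered to 330 U/mL, and EpiSCs, present for A2 alone, had been recovered from a pseudopregnant mouse after implantation of A2 cells and grew in serum replacement with activin A and bFGF. EpiSCs therefore differ from the other A2 groups in origin, medium and growth factors at once, and these cannot be told apart here. EPL cells differ from naive cells in LIF dose as well as in added L-proline, which cannot be told apart either. The sources used here do not say whether the 3 libraries of a group came from separate cultures, and p-values then reflect only how far libraries differ, which may be technical.

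Totals ranged from 15320599 to 23490527 counts per library. Pou5f1, a factor that defines pluripotent cells, was present in all groups, at a mean of 489 CPM in EpiSCs and of 1074 to 1397 CPM elsewhere (CPM is the count divided by the TMM-scaled library size, times 1e6). Sox2 and Nanog differed by -0.87 and -1.62 (log2) between EpiSCs and A2 ground cells. The ground and naive markers Klf4, Tbx3, Esrrb, Tfcp2l1 and Zfp42 differed there by -1.22, -1.75, -2.12, -4.26 and -1.85. Between EPL and ground cells, averaged over both lines, they differed by -2.62, -3.84, -1.33, -3.25 and -0.67. The EpiSC markers Eomes, T and Fgf5 averaged 22.3, 4.41 and 12.7 CPM in EpiSCs, each higher than in A2 EPL cells, and Cer1 was at most 0.21 CPM in every group. Fgf5 also marks EPL cells, where it was 7.70 (log2) above ground cells, averaged over both lines. Otx2, Pou3f1 and Dnmt3b, which the primed state also expresses, differed from A2 EPL cells by -2.16, -1.71 and -3.13 on the log2 scale, so the markers bear out the EpiSC label only in part. Markers of fibroblasts were high in EpiSC libraries: all 10 were called higher than in EPL cells, and their summed level was 2250.0 to 2856 CPM, against 7.99 to 22.4 CPM in the 18 other libraries. All 9 primitive endoderm markers were also higher than in EPL cells, with a sum of 1028 to 1401 CPM against 27.95 to 257 CPM in the other libraries, and none of the defining genes of either list was at 0 in EpiSCs. Trophoblast markers summed to 9.81 to 14.1 CPM in EpiSCs and to 6.18 to 19.1 CPM elsewhere. The part that these cells, or a change in the amount of RNA per cell, have in the EpiSC results below was not tested; in bulk libraries, fewer cells of a type and less RNA per cell cannot be told apart.

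The genes are short and compact. The median member spanned 3266 bp, against 24236 bp for the 14577 protein-coding genes tested, and they lie on 19 chromosomes, 14 of them on chromosome 7 and 4 on X (GENCODE M21, GRCm38). Of the 82, 29 hold 56 annotated snoRNA genes, which guide the modification of ribosomal RNA. The annotation calls 80 protein-coding and 2, Rps4l and Rpl6l, processed pseudogenes. Copies of these genes are frequent: 58 members have between them 265 rows whose symbol is the member's name followed by "-ps". The handling of reads that match several copies was not stated, so levels of members with close copies are uncertain.

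The promoters, shown because most members move together, were taken from RefSeq for the 60 members with an entry (250 bases before to 50 after the annotated start, build GRCm38.p6). Those of 4 members are printed from 50 bases before to 30 bases after the start, on the gene's strand and 5′ to 3′, with the longest unbroken pyrimidine run in capitals. Rpl31 and Rpl13 are members that the results turn on and hold a run of 13 and 10 bases near the start, and Rpl39l and Rpl10l are paralogs with runs of 9 and 5 bases.
Rpl31, chr1:39367801-39367880, plus strand: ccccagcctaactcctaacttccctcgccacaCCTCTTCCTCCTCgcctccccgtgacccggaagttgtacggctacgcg
Rpl13, chr8:123102300-123102379, plus strand: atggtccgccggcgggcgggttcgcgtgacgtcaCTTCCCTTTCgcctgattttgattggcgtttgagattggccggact
Rpl39l, chr16:10170178-10170257, plus strand: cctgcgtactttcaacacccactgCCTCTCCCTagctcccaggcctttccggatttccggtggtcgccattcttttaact
Rpl10l, chr12:66284372-66284451, minus strand: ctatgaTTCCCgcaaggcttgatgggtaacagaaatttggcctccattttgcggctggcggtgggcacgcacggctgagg

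A pyrimidine run of at least 10 bases within 50 bases of the start was found in 39 of the 60 promoters, or 65%, against 17.4% of all 16577 promoters in the same table. The letters CTTTC on the gene's strand in that window, which often stand at the start of a TOP mRNA, were found in 50% of the members and 11.1% of all promoters. CCGGAAG on either strand of the whole window, the core bound by ETS factors such as GABPA, was found in 40% and 12.3%. TATAAA in the 50 bases before the start was found in none of the 60 and in 3.53% of all, and the E-box CACGTG, which Myc proteins bind, in 8.33% and 8.13%. The GC box GGGCGG was found in 58.3% and 48.3%. These are matches of letters, and only 39 of the 60 RefSeq starts lay within 50 bases of a GENCODE start.

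Per kilobase of exon, member levels spread over more than 3 orders of size. The median was 407 CPM per kb, and 76 of 82 members were above 100 CPM per kb. Rplp1, a protein of the stalk that recruits translation factors, was highest at 3777 CPM per kb, followed by Rpl8, a protein near the peptidyl transferase centre, at 1693, and Rpl36 at 1510 CPM per kb. At the other end stood Rpl3l, a paralog of Rpl3 known from striated muscle, at 0.941 CPM per kb, and Rpl29 and Rpl24 at 3.64 and 4.62 CPM per kb. The last pair encode ordinary large-subunit proteins. Rpl24 has no "-ps" row and Rpl29 has 3, which together reached 0.084 CPM, so no such row of the table holds the counts those genes lack. Rpl34, at 67.5 CPM, had 2 "-ps" rows that together reached 211 CPM.

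**Figure D1:**
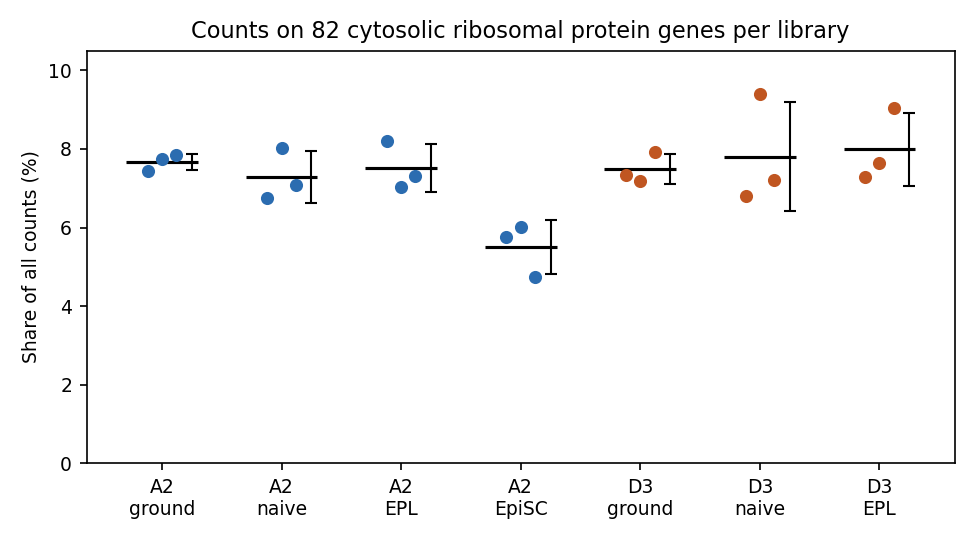
Share of all counts of a library (%, y axis) that fell on the 82 cytosolic ribosomal protein genes, for each of the 7 groups (x axis). Points are libraries (A2 blue, D3 orange), bars the group mean and whiskers its SD (n = 3). The 3 EpiSC libraries, at 4.73% to 6.02%, lie below all 18 others.

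Together the 82 genes took 4.73%, 5.76% and 6.02% of the counts of the EpiSC libraries and 6.75% to 9.39% of those of the other 18. The share was 7.67% ± 0.21 (SD, n = 3) in A2 ground, 7.29% ± 0.66 in A2 naive and 7.51% ± 0.61 in A2 EPL cells, against 5.504% ± 0.68 in A2 EpiSCs. In D3 it was 7.48% ± 0.38 in ground, 7.81% ± 1.39 in naive and 7.99% ± 0.93 in EPL cells. The ranges of the 6 groups other than EpiSC overlapped, and the EpiSC range overlapped with none.

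Libraries of a group differed in these genes as a block. D3 naive replicate 2 had all 82 above their group means, with a median deviation of 0.32 on the log2 scale, and D3 naive replicate 1 had 0 of 82 above. In A2, naive replicate 2 had 79 above, with a median of 0.149, and naive replicate 1 had 3 above. D3 EPL replicate 3 had 81 above and A2 EpiSC replicate 3 had 0 above, with medians of 0.19 and -0.21. D3 naive replicate 2 and D3 EPL replicate 3 took 9.39% and 9.04% of counts on these genes, more than any other library. Reads of mitochondrial genes, which move with library quality, took 1.53% and 1.24% of their counts, the lowest in each group; the part of this in the results was not tested. Results that rest on these 2 libraries are given with and without them.

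Every one of the 82 members differed among the 7 groups in the joint test of all groups (edgeR's quasi-likelihood F test with Benjamini-Hochberg adjustment over all genes tested, adjusted p below 0.05), as did 93.6% of all genes. For 80 of 82 the lowest group mean was that of A2 EpiSCs. Among the 6 other groups the highest mean exceeded the lowest by a median of 1.20-fold over the members, and by more than 1.5-fold in 7, among them Rpl39l (2.94-fold), Rpl3l (2.26-fold), Rpl10l (1.97-fold), Rps15a (1.73-fold), Rpl13 (1.58-fold) and Rpl29 (1.53-fold).

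**Figure D2:**
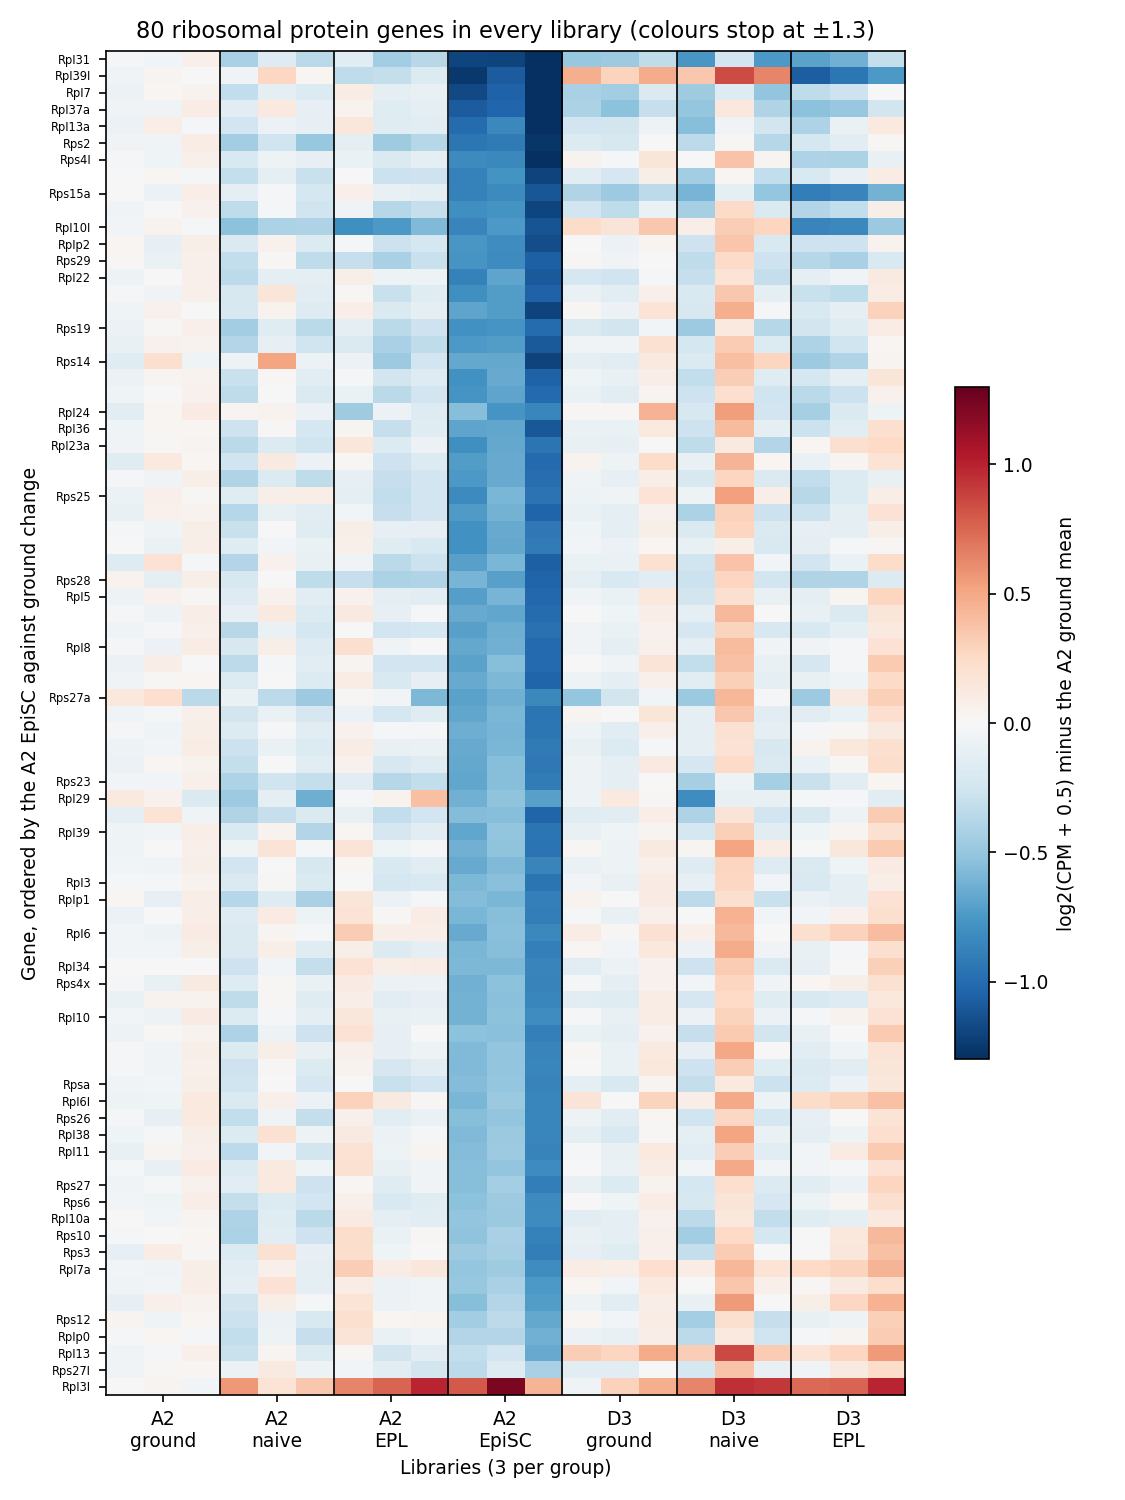
Level of 80 of the 82 genes (rows, ordered by their change from A2 ground cells to A2 EpiSCs, with the genes named in the text labelled) in each of the 21 libraries (columns, 3 per group), as log2(CPM + 0.5) minus the mean of the A2 ground libraries. The A2 EpiSC columns are below the A2 ground mean for 79 of these genes on average, with Rpl3l as the exception, and D3 naive replicate 2 lies above its group means.

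In EpiSCs nearly the whole set was lower than in EPL cells of the same line. Against A2 EPL cells, 78 of 82 members fell and 0 rose, where 31.3% of all genes fell and 39.1% rose (edgeR, adjusted p below 0.05). The median member difference was -0.65 on the log2 scale, a 1.56-fold fall, beside a median of 0.07 over all genes. In 79 members all 3 EpiSC libraries lay below all 3 EPL libraries, which held for 32.9% of all genes. The same held against naive cells, where 76 fell and Rpl3l rose (median -0.58, background 31.2% lower and 39.1% higher), and against ground-state cells, where 81 fell and Rpl3l rose (median -0.72, background 34.1% lower and 39.1% higher). These 3 comparisons share the same EpiSC libraries. In 73 members, every EpiSC library was below each of the 18 other libraries, against 14.9% of all genes. The fall held in both subunits: 47 of 50 large-subunit genes fell against EPL cells, with a median of -0.68, and 31 of 32 small-subunit genes, with a median of -0.61.

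Scaling to total counts, without TMM factors, moved the median of all genes in these comparisons from between 0.04 and 0.08 to between 0.26 and 0.30. The member medians became -0.44 against EPL, -0.40 against naive and -0.46 against ground cells, and the members called lower 72, 65 and 75. Relative to the median of all genes, the member medians were -0.71, -0.66 and -0.76 under both scalings. This follows by construction, because the scale factor of a library shifts all its genes alike. Without A2 EpiSC replicate 3, the library lowest in these genes, 75, 69 and 78 members fell. The share of all genes called was not computed under total-count scaling or without this library.

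**Figure D3:**
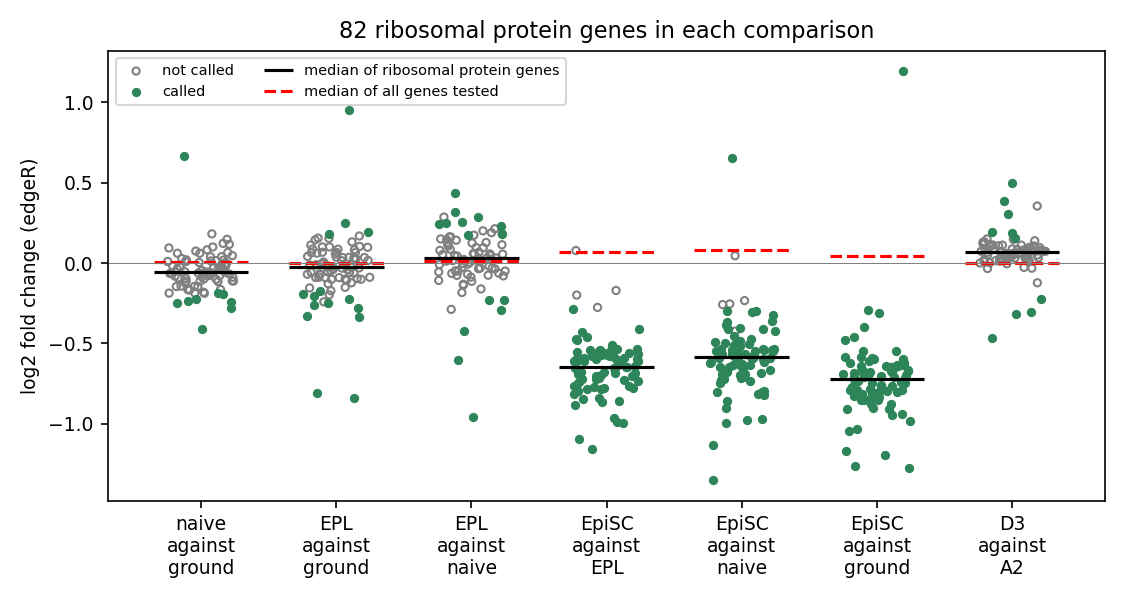
Log2 fold change (y axis) of each of the 82 genes in 7 comparisons (x axis). Filled points were called by edgeR at an adjusted p below 0.05, black bars are the medians of the 82 genes and dashed red bars those of all 16575 genes tested. The 3 EpiSC comparisons sit near -0.6 to -0.7 and the others near 0.

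The stalk proteins, which bind elongation factors to the large subunit, fell in EpiSCs. Rplp1 stood at 1391, 1361 and 1109.8 CPM in the EpiSC libraries and at 2299, 1954 and 2030.3 CPM in A2 EPL cells. The libraries of these groups did not overlap, and the difference was -0.70 ± 0.12 (SE, adjusted p = 2.79e-05 by edgeR with Benjamini-Hochberg adjustment). Rplp2 differed by -0.73 and Rplp0, the protein that anchors the stalk, by -0.47. Against naive cells Rplp2 differed by -0.80 and Rplp1 by -0.36, both called, and Rplp0 by -0.23 (edgeR adjusted p = 0.0737, not called).

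Members with known roles, in the ribosome or beyond it, fell with the rest against EPL cells. Rpl5 and Rpl11, which carry 5S RNA and bind Mdm2, differed by -0.70 and -0.68. Rps19, mutated in Diamond-Blackfan anaemia, differed by -0.61, and Rps14, the gene behind the anaemia of the 5q- syndrome, by -0.57. Rps6, the substrate of the S6 kinases, differed by -0.51, Rpsa, also known as the laminin receptor precursor, by -0.46, and Rpl38, which is mutated in Tail-short mice, by -0.64. Rps3, Rps26 and Rps14 lie along the path of the mRNA through the small subunit, and the first 2 differed by -0.65 and -0.58. Rpl3 and Rpl10, near the peptidyl transferase centre, differed by -0.55 and -0.63, and Rpl22 by -0.86. Rps27a, made as a fusion with ubiquitin, differed by -0.54 ± 0.21 (edgeR adjusted p = 0.0261) and was the most variable of these, with 511, 537 and 465 CPM in EpiSCs and 834, 806 and 554 CPM in EPL cells. Leaving out EPL replicate 1, EPL replicate 2 or EpiSC replicate 3 moved its adjusted p to 0.105, 0.0868 and 0.0685 (edgeR). All of these genes were called.

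The fall ranged in size. Against EPL cells, 72 members differed by between -0.4 and -0.9, 5 fell further and 5 fell less or rose. Furthest fell Rpl7, a large-subunit protein, at 1054, 1149 and 916 CPM in EpiSCs and 2549, 2195 and 2220.0 CPM in EPL cells, a difference of -1.16 ± 0.11 (SE, edgeR adjusted p = 3.41e-09). Rpl37a followed at 368, 382 and 294 CPM against 804, 700.2 and 722 CPM, a difference of -1.09 ± 0.13. Rpl13a, which also leaves the ribosome to silence inflammatory mRNAs, differed by -0.997, Rpl39l by -0.99 and Rpl31, at the exit of the peptide tunnel, by -0.97. Rpl31, Rpl39l, Rpl7, Rpl37a and Rpl13a were also the 5 members that fell furthest against ground-state cells, by -1.27, -1.26, -1.20, -1.17 and -1.04. In all 5, no EpiSC library overlapped with an A2 EPL or ground library. Rpl31 and Rpl37a both lie on chromosome 1, Rpl13a on chromosome 7 and Rpl39l on chromosome 16. The position of Rpl7, which has no promoter entry, is not given here, so these positions do not cover all 5. The part of gene position in these falls was not tested.

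The 4 members not called against EPL cells were Rpl13 (-0.28, adjusted p = 0.0662), Rpl10l (-0.20, adjusted p = 0.0825), Rps27l (-0.17, adjusted p = 0.182) and Rpl3l (0.08, adjusted p = 0.785), all by edgeR. Rpl13, an ordinary large-subunit protein, had 1242, 1312 and 987 CPM in EpiSCs and 1564, 1319.9 and 1403 CPM in EPL cells. The other 3 are paralogs of members. Rpl3l had 1.84, 2.66 and 1.33 CPM in EpiSCs and 0.851, 0.884 and 0.815 CPM in ground-state cells, so that its rise of 1.19 ± 0.27 (edgeR adjusted p = 0.00038) rests on few counts. Against naive cells its rise of 0.65 did not pass without EpiSC replicate 2, where it was 0.34 (edgeR adjusted p = 0.249), nor without A2 naive replicate 2 or 3 (edgeR adjusted p = 0.103 and 0.0630).

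Counts scaled to the sum of all 82 genes show the members against each other, with the common fall removed by construction. On that scale 10 members were higher and 10 lower in EpiSCs than in EPL cells (edgeR, adjusted p below 0.05). Rpl7 (-0.50), Rpl37a (-0.44), Rpl13a (-0.35), Rpl39l (-0.34) and Rpl31 (-0.31) were lowest. Among the higher members were Rpl3l (0.70), Rps27l (0.49), Rpl10l (0.44) and Rpl13 (0.37). In all 3 EpiSC comparisons Rpl7, Rpl13a, Rpl31, Rpl37a, Rpl39l, Rps15a and Rps4l were lower than the set, and Rpl3l, Rpl13, Rplp0, Rps6 and Rps27l were among those higher. Over the 7 groups 41 of 82 members differed on this scale. The share of all genes called on it was not computed, so these counts have no background.

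The change against ground-state cells was similar in members with and without a long pyrimidine run. The 39 members with a run of at least 10 bases had a median of -0.74 and the other 21 with a promoter -0.67, given as a description.

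The rest of the machinery that makes and uses ribosomes was lower in EpiSCs as well. Against EPL cells, 6 of the 7 ribosomal protein genes outside the rule fell, among them Rpl36al (-0.72), Rps27rt (-0.69), Rpl7l1 (-0.68) and Fau (-0.65), while Rpl22l1, a paralog of Rpl22, differed by 0.05 and was not called. All 18 translation factors and other genes whose mRNAs belong to the TOP class fell, with a median of -0.73, led by the elongation factor subunit Eef1b2 (-0.95), the nucleolar chaperone Npm1 (-0.90) and the initiation factors Eif3l (-0.88) and Eif4b (-0.86). Of 13 genes for RNA polymerase I and its factors 12 fell, with a median of -0.57. The initiation factor Rrn3 (-1.17), the subunit Polr1b (-0.97) and Taf1a (-0.96) and Taf1d (-0.81) of the promoter complex fell furthest, and Taf1c was not called. Of 71 ribosome assembly factors 70 fell, with a median of -0.83, led by Nhp2 (-1.48), Utp14a (-1.46), Wdr12 (-1.38) and Wdr75 (-1.33), and Rrp1 was not called. All these calls are by edgeR over all genes tested, of which 31.3% fell. The fibroblast and primitive endoderm markers given above rose in the same comparison, and the part of those cells in the fall of these lists was not tested.

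**Figure D4:**
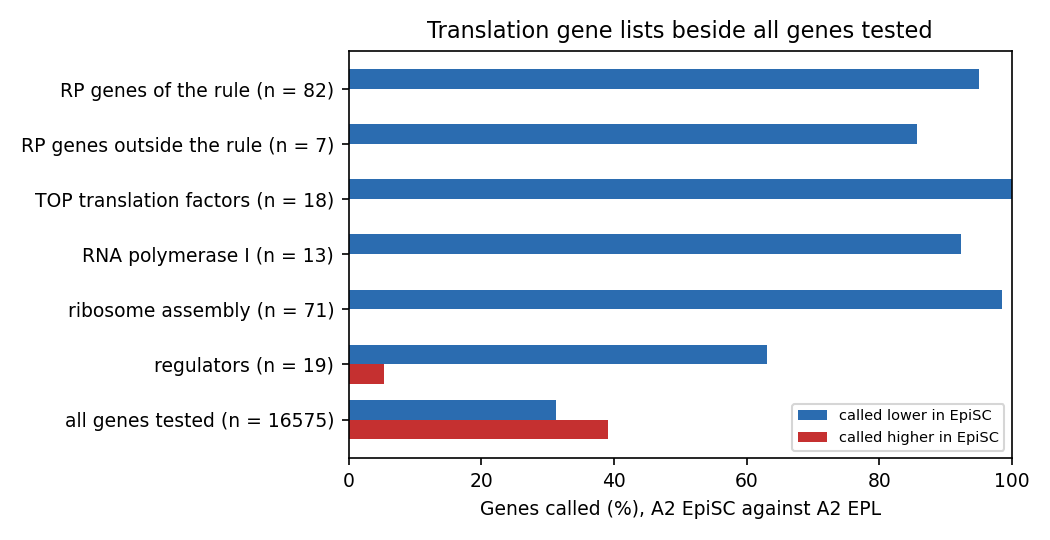
Percentage of genes called lower (blue) or higher (red) in A2 EpiSCs than in A2 EPL cells (x axis) in 6 lists and among all genes tested (y axis, with the number of genes). Of the 82 ribosomal protein genes 95.1% were lower, beside 98.6% of assembly factors and 31.3% of all genes.

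Among 19 regulators of ribosomal protein gene transcription and TOP mRNA translation, 12 were lower and 1 higher in EpiSCs than in EPL cells. Myc fell by 2.35 and Mycn by 1.99 on the log2 scale, Larp1, which binds TOP mRNAs, by 0.84, and Mycl rose by 0.87. Myc averaged 23.1 ± 2.44 CPM in EpiSCs (SD, n = 3), 118 ± 12.8 CPM in A2 EPL and 17.2 ± 0.60 CPM in A2 ground cells. Mycn averaged 78.2 ± 6.39 CPM in EpiSCs, 310.1 ± 8.20 CPM in A2 EPL and 145 ± 8.83 CPM in A2 ground cells. Of 11 p53 target genes 6 were higher and 3 lower in EpiSCs than in EPL cells, beside 39.1% and 31.3% of all genes, with Cdkn1a (2.96), Pmaip1 (2.42), Ccng1 (1.04) and Mdm2 (1.03) rising most.

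Between the 3 mESC-derived stages the ribosomal protein genes moved little. Naive and ground-state cells, compared within each line and averaged over both lines, differed by a member median of -0.06, with 8 members lower and 1 higher, where 31.8% and 31.7% of all genes were called (edgeR, adjusted p below 0.05). The members called were Rpl29 (-0.41), Rps23 (-0.28), Rps2 (-0.25), Rplp1 (-0.25), Rpl10l (-0.24), Rpl31 (-0.22), Rpl10a (-0.20) and Rpl23a (-0.19), with Rpl3l higher by 0.66. Rpl29 and Rpl3l averaged 4.1 and 1.5 CPM over all libraries, so their changes rest on few counts. All but Rpl3l had overlapping libraries in at least 1 line. The count depended on D3 naive replicate 2: without that library 31 members were lower, with a median of -0.15. A2 naive replicate 2, kept in that fit, also had 79 of 82 members above their group means. Without D3 naive replicate 2 and D3 EPL replicate 3, the libraries richest in these genes, 36 were lower. The share of all genes called was not computed for any fit with libraries left out, so such counts have no background here. In A2 alone 10 were lower and 0 higher (median -0.14, background 25.9% lower and 25.1% higher), and in D3 alone 0 were lower and Rpl3l was higher (median 0.03, background 27.3% lower and 26.3% higher). The interaction of line and stage called 0 of 82 members (3.06% of all genes, 1.51% higher and 1.56% lower), with 2 at an unadjusted p under 0.05. Its member median was 0.17, with 81 of 82 above 0, and became -0.00 without both libraries. DESeq2 also called 0 members in either direction.

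EPL and ground-state cells differed by a member median of -0.03, with 4 members higher and 11 lower against backgrounds of 33.1% and 33.2%. The paralogs Rpl10l (-0.84 ± 0.07, edgeR adjusted p = 4.80e-10) and Rpl39l (-0.81 ± 0.08, edgeR adjusted p = 7.76e-09) fell furthest. The other falls were at most 0.33 in size and included Rps29 (-0.33) and Rps4l (-0.25), and the rises included Rpl3l (0.95), Rpl7a (0.20) and Rpl6 (0.18). Without both libraries rich in these genes 21 members were lower. In A2 alone 1 member was higher and 7 lower (background 27.2% and 27.6%), and in D3 alone 4 were higher and 5 lower (29.4% and 28.4%). In the same comparison 40 of 71 assembly factors rose and 7 fell, with a median of 0.18, and Utp14a (0.99), Ebna1bp2 (0.94), Gnl3l (0.52) and Gar1 (0.50) rose most. Myc rose by 2.54 and Mycn by 1.23. Of the 18 TOP-class genes, 7 rose and 0 fell, among them Eef2 (0.49) and Nap1l1 (0.42).

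EPL and naive cells differed by a member median of 0.03, with 9 members higher and 6 lower against backgrounds of 27.1% and 24.1% (edgeR). The stalk proteins Rplp0 (0.25) and Rplp1 (0.23) rose, and other rises included Rpl29 (0.43), Rps10 (0.32), Rpl23a (0.29), Rps12 (0.25), Rpl6 (0.18) and Rpl7a (0.18). Rpl29 averaged 4.1 CPM over all libraries, so its rise rests on few counts. Rpl39l (-0.96), Rpl10l (-0.60), Rps14 (-0.42), Rps25 (-0.29), Rps28 (-0.23) and Rps4l (-0.23) fell. Of these 15 members only Rpl39l and Rpl10l had no overlap between libraries within both lines. In A2 alone 4 rose and 1 fell (background 16.8% and 16.1%), and in D3 alone 1 rose and 6 fell (24.4% and 20.5%). Without D3 naive replicate 2, 24 members rose, and without D3 EPL replicate 3, 3 rose.

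Rpl39l and Rpl10l are paralogs best known from the testis, where they stand in for X-linked Rpl39 and Rpl10 while the X chromosome is silent. Rpl39l lies at chr16:10170226-10174911 on the plus strand with up to 3 exons, and Rpl10l at chr12:66283379-66284401 on the minus strand with 1 exon (GRCm38). The coding sequences of the first pair are shown because they tell whether reads can be assigned to one copy, with every base that differs between them in capitals.
Rpl39: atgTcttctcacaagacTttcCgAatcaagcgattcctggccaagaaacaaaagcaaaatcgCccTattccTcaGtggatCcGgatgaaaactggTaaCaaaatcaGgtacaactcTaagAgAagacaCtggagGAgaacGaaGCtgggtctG
Rpl39l: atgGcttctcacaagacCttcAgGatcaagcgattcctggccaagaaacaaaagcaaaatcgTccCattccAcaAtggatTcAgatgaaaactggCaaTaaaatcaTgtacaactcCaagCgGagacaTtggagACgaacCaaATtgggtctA

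The 153 coding bases differ at 23 places, an identity of 85.0%, and the longest run they share is 38 bases. Rpl10 and Rpl10l differ at 98 of 642 coding bases, an identity of 84.7%, with a longest shared run of 23 bases. Rps27 and Rps27l differ at 60 of 252, with a longest shared run of 11 bases.

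In D3, Rpl39l stood at 88.3, 77.8 and 88.9 CPM in ground, 81.1, 114 and 98.6 CPM in naive and 29.9, 32.8 and 37.5 CPM in EPL cells. The D3 EPL libraries were far below the other 6. In A2 it stood at 61.3, 65.1 and 63.7 CPM in ground, 61.5, 76.2 and 64.4 CPM in naive and 50.2, 51.1 and 55.8 CPM in EPL cells, so that the EPL libraries were lowest there too, by less. The fall from naive to EPL cells was -1.55 ± 0.12 in D3 and -0.36 ± 0.11 in A2, and their difference, the interaction of line and stage, was -1.19 (edgeR adjusted p = 4.59e-05). From ground to EPL cells the fall was -1.34 in D3 and -0.27 in A2, with an interaction of -1.07 (edgeR adjusted p = 0.000101). EpiSCs, at 26.3, 29.7 and 23.2 CPM, had the lowest levels.

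The level of Rpl10l was 177, 168 and 190.3 CPM in D3 ground, 159, 186 and 182 CPM in D3 naive and 82.2, 83.4 and 107 CPM in D3 EPL cells. In A2 it was already lower in naive cells: 146, 155 and 149 CPM in ground, 103, 112 and 113 CPM in naive and 85.6, 88.7 and 101 CPM in EPL cells. The fall from naive to EPL cells was -0.95 in D3 and -0.26 in A2 (edgeR adjusted p = 0.0536 in A2, not called), and the interaction was -0.69 (edgeR adjusted p = 0.0023). From ground to EPL cells Rpl10l fell in both lines, by 0.97 in D3 and by 0.71 in A2. EpiSCs had 82.02, 88.9 and 68.6 CPM, which overlapped with A2 EPL cells.

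**Figure D5:**
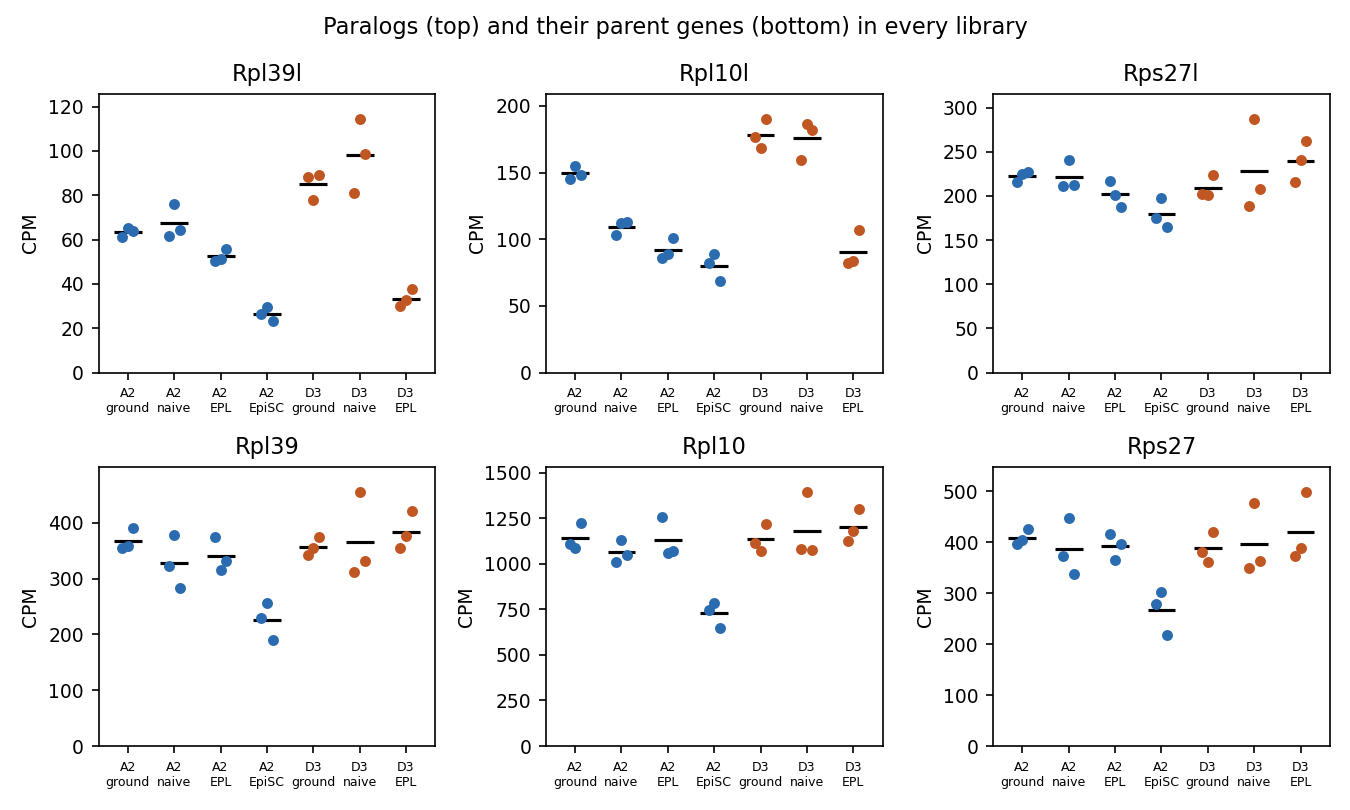
CPM (y axes, from 0) of 3 paralogs (top row) and of the genes they resemble (bottom row) in each library of the 7 groups (x axes). Points are libraries (A2 blue, D3 orange) and bars group means. Rpl39l and Rpl10l fall to 29.9 to 37.5 and 82.2 to 107 CPM in D3 EPL cells, while Rpl39 stays at 354 CPM or above there.

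The X-linked counterparts were not called between these stages. Rpl39 stood at 354, 376 and 420.1 CPM in D3 EPL and at 343, 354 and 375 CPM in D3 ground cells, and Rpl10 was called in none of the 3 comparisons between mESC-derived stages. Rps27l, a p53 target gene, was not called in those comparisons either, and was lower in EpiSCs than in naive (-0.30) and ground (-0.31) cells. Rps4l, a retrocopy of X-linked Rps4x that the annotation lists as a transcribed pseudogene, had 335, 334 and 238 CPM in EpiSCs and 562, 522 and 548 CPM in A2 EPL cells; how many of its counts come from Rps4x reads cannot be told from the table. The interactions called 1 member lower and 0 higher for EPL against ground cells (6.06% and 7.25% of all genes) and 3 lower and 0 higher for EPL against naive cells (5.93% and 6.78%), which are Rpl39l in both and Rpl10l and Rps15a in the second.

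Between the lines, over the ground, naive and EPL stages, 6 members were higher and 4 lower in D3 than in A2, against backgrounds of 20% and 20.7% (edgeR). The member median was 0.07, and -0.02 without both libraries rich in these genes. Rpl13 (0.50 ± 0.08, edgeR adjusted p = 1.50e-05) had no overlap between lines within any stage, which held upward for 5.63% of all genes. Rpl13, at chr8:123102350-123105244, had 1505, 1530.2 and 1627 CPM in A2 ground and 1934, 1880.4 and 2169.7 CPM in D3 ground cells. Also higher in D3 were Rpl10l (0.31), Rpl7a (0.19), Rpl6l (0.19) and Rpl6 (0.16), and those lower were Rps15a (-0.47), Rpl37a (-0.31), Rpl31 (-0.30) and Rpl7 (-0.23). Stage by stage, 1 member was higher and 4 lower in D3 ground cells (background 9.13% and 10.9%), 5 and 0 in naive cells (14.5% and 15.4%) and 2 and 2 in EPL cells (15.6% and 13.8%). The line difference of Rpl39l changed sign with stage, at 0.42 in ground, 0.54 in naive and -0.65 in EPL cells, each called.

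Rps15a, a small-subunit protein encoded at chr7:118104372-118116188, had the largest fall between the lines (edgeR adjusted p = 2.47e-06). It stood at 978, 874 and 856 CPM in A2 EPL and at 501, 515 and 613 CPM in D3 EPL cells, a difference of -0.73 at that stage. In ground cells the values were 933, 885 and 991 CPM in A2 and 715, 676 and 741 CPM in D3, a difference of -0.40. The naive libraries overlapped, and the difference there was -0.27 (edgeR adjusted p = 0.0623, not called). Rpl31, Rpl37a and Rpl7, which were lower in D3 by the mean over stages, passed at the ground stage, with -0.43, -0.41 and -0.35, and not in naive or EPL cells. These 4 members were also among the 7 that stood below the set in all EpiSC comparisons. The EpiSC libraries are of A2 and are compared there with A2 cells. Rpl31 and Rpl37a both lie on chromosome 1 and Rps15a on chromosome 7, and the position of Rpl7 is not given here. The part of gene position was not tested.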

How the data were processed

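The deposited values are raw counts, in 1 table with a row for each Ensembl gene. The submitters' processing notes name HISAT2, SAMtools, featureCounts and GRCm38. Their versions, the strand setting and the handling of reads that match several genes were not stated there. Per the labels, total RNA was made into libraries with a TruSeq RNA kit, which does not mark strand. All 21 libraries entered a single quasi-likelihood fit in edgeR 4.0.16 (R 4.3.3) that gave each of the 7 groups its mean, with TMM factors (1.136 to 1.144 in EpiSCs, 0.933 to 1.007 elsewhere) and filterByExpr (minimum count 10, minimum total 15). P-values were adjusted by Benjamini-Hochberg over 16575 genes and called below 0.05. EpiSC comparisons are within A2. The series text calls the samples paired without saying how. Correlations did not show same-numbered libraries deviating together (8 of 63 pairs of libraries above r = 0.1), so no pairing was modelled in the main fit. The members as a block did shift in the same direction in same-numbered A2 and D3 libraries of ground and naive cells. In EPL cells, replicates 1 and 3 shifted in opposite directions in A2 and D3. The cause of these shared shifts was not tested. The fit was tested on simulated data. The members and lists were chosen with earlier results of these data known. Named were the 5 largest called rises and falls without overlap and a mean of at least 5 CPM, members of fixed role and paralog lists, the extremes of level and up to 4 genes per other list; other called members were named after their values were seen. DESeq2 1.42.0, other scalings, filters, single lines, single stages, a replicate block and leaving out each library were tried. The share of all genes called was computed in the main fit alone, so counts of members under other fits have no background. Some members are counted but not reported by name here. The precision is limited by 3 libraries per group.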

Additional observations from a re-analysis of the deposited data

Results flagged for a closer look

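For 3 members the change between stages differed between the lines, by the interaction of line and stage in edgeR with Benjamini-Hochberg adjustment over all genes. Rpl39l fell further in D3 than in A2 from ground to EPL cells, by -1.07 on the log2 scale (adjusted p = 0.000101), and from naive to EPL cells, by -1.19 (adjusted p = 4.59e-05). Over 30 alternatives the first ranged from -1.20 to -0.995 with an adjusted p of at most 0.000547, and the second from -1.33 to -1.06 with an adjusted p of at most 0.000255. Rpl10l fell further in D3 from naive to EPL cells, by -0.69 (adjusted p = 0.0023), with a range from -0.85 to -0.64 and an adjusted p of at most 0.0191. For both genes all 3 D3 EPL libraries lay below all 3 D3 naive libraries. Rps15a differed by -0.46 from naive to EPL cells (adjusted p = 0.0494). That call was lost in 14 of 30 alternatives, with an adjusted p between 0.000811 and 0.147 over all of them. The highest was reached without D3 naive replicate 2, where the value was -0.30.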

How the results depend on the processing

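The EpiSC falls kept their direction and stayed within 1.5 times in number under all alternatives but one. Scaling to the summed counts of the 82 genes, which removes any common change, gave 10 higher and 10 lower against EPL, 14 and 13 against naive and 12 and 11 against ground cells, and 41 members that differed among groups. Under it the following members, called lower in the report, were above 0. Against EPL cells they were Rps3 (0.0015), Rpl38 (0.0073), Rpl10 (0.023), Rps19 (0.051), Rps26 (0.074), Rps14 (0.077), Rpl3 (0.10), Rps27a (0.12), Rps6 (0.14), Rplp0 (0.19) and Rpsa (0.19). Against naive cells they were Rps3 (0.019), Rpl3 (0.018), Rpl10 (0.044), Rps19 (0.061), Rpsa (0.10), Rpl10l (0.13), Rpl11 (0.16), Rps26 (0.18), Rplp1 (0.22), Rps6 (0.22) and Rps27l (0.29). Against ground cells they were Rps27a (0.0051), Rpl3 (0.054), Rplp1 (0.063), Rpl10 (0.10), Rpsa (0.10), Rps26 (0.11), Rpl38 (0.11), Rpl11 (0.12), Rps6 (0.14), Rps3 (0.15), Rplp0 (0.29), Rpl13 (0.34) and Rps27l (0.44). The same scaling gave 12 higher for naive against ground, 18 higher for EPL against ground, 15 higher and 15 lower for EPL against naive, and 2 lower for the interaction of EPL against ground.

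Counts between mESC-derived stages moved more. Naive against ground had 5 lower with RLE size factors, DESeq2 and TMM without the members, 4 lower and 3 higher with total-count scaling, and 15 lower and 4 higher without a filter. EPL against ground had 7 lower with RLE, DESeq2 and TMM without the members, 6 lower and 9 higher with total-count scaling, and 9 higher without a filter. Without a filter, EPL against naive had 19 higher, D3 against A2 18 higher, the interaction of naive against ground 3 higher, and that of EPL against ground 1 higher and 2 lower. Leaving out both libraries above 9% gave 36 lower for naive against ground, 21 lower for EPL against ground, 19 higher for EPL against naive and 3 lower for the interaction of EPL against ground; this and TMM without the members were chosen after seeing the data. A2 alone gave 0 higher for naive against ground, 1 higher and 7 lower for EPL against ground and 4 higher and 1 lower for EPL against naive. D3 alone gave 0 lower, 5 lower and 1 higher in that order. D3 against A2 gave 1 higher at the ground stage, 0 lower at the naive stage, and 2 higher and 2 lower at the EPL stage, where Rpl10l differed by -0.013.

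Leaving out 1 library at a time gave 3 to 31 lower and 1 to 2 higher for naive against ground, 6 to 14 lower for EPL against ground, 3 to 24 higher for EPL against naive and 0 to 1 higher for EpiSC against naive. For the interactions it gave 0 to 1 higher and 1 to 2 lower for EPL against ground and 0 to 1 higher for EPL against naive. For naive against ground, 3 lower came from leaving out A2 naive replicate 3, D3 ground replicate 3 or D3 naive replicate 1, and 31 from D3 naive replicate 2. For EPL against naive, 3 higher came from D3 EPL replicate 3 and 24 from D3 naive replicate 2. A replicate block was also fitted, although correlations did not show same-numbered libraries deviating together. It gave 77 lower for EpiSC against EPL, 74 against naive and 81 against ground cells, and moved no count by over 1.5 times. It ended the call of Rpl6 for EPL against naive and for D3 against A2, and of Rps15a in the interaction (edgeR adjusted p = 0.0644). The cause of these moves was not tested. With 3 libraries per group, small differences between stages cannot be told from the shifts of whole libraries described above.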
